A study of Mus musculus with 2 samples.

Results

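The genes described here are 7 genes grouped under lipid transport in brain, although 1 of them, *Cst3*, codes for a protease inhibitor. *Apoe*, *Clu*, *Apod* and *Cst3* code for secreted proteins, and *Abca1*, *Abcg1* and *Lrp1* code for membrane proteins. They were taken by symbol from the gene list of the count matrices, which holds all 7 among 32285 genes. The nuclei came from the hippocampus of male mice aged 9 months. PS19 mice carry the human tau P301S transgene in 1 copy (PS19 +/-) on a wild-type Zbp1 background (Zbp1 +/+), and PZKO mice carry the same transgene and lack Zbp1 (Zbp1 -/-), the sensor of Z-form nucleic acids that the study deleted. Both groups therefore carry the tau transgene, and no group without it is part of the data. Each genotype is 1 library made from pooled hippocampi, of 5 mice per pool, so there is no replicate, and the libraries are compared without a test. The study's methods also say that the animals' hippocampi were handled separately, but the counts carry no animal label. The intervals given below are 95% intervals that cover counting error only.

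In brain, apolipoprotein E is the main carrier of cholesterol and phospholipid, made chiefly by astrocytes and, in disease, by microglia. ABCA1 and ABCG1 move cholesterol out of the cell onto apolipoprotein particles, and LRP1 is an endocytic lipoprotein receptor that takes the loaded particles up into neurons and other cells. Clusterin (*Clu*, also called apolipoprotein J) is a secreted chaperone and lipid carrier, apolipoprotein D (*Apod*) is a lipocalin made by oligodendrocytes and by fibroblast-like cells of the meninges, and cystatin C (*Cst3*) is a secreted inhibitor of cysteine proteases that is abundant in astrocytes and microglia. *Abca1*, *Abcg1* and, in some cells, *Apoe* are known targets of the liver X receptors (LXR), which sense oxidised sterols.

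The PS19 library held 11469 barcodes with a median of 5642 unique molecular identifiers (UMIs), and the PZKO library held 10920 barcodes with a median of 8342.5 UMIs. After filters on UMIs, genes and mitochondrial share and the removal of likely doublets, 9590 PS19 nuclei and 9307 PZKO nuclei remained, and 47 barcode sequences occurred in both libraries. Nuclei fell into 39 clusters, of which 33 were named by fixed marker lists into 14 classes (astrocyte-like, microglia-like and so on, called astrocytes and microglia from here on). The classes with at least 50 nuclei in each library were excitatory and inhibitory neurons, astrocytes, microglia, oligodendrocytes, oligodendrocyte precursors (OPC), endothelial cells, pericytes, vascular leptomeningeal cells (VLMC), choroid plexus and ependymal cells. *Zbp1* itself gave 92 UMIs in all PS19 nuclei and 38 UMIs in all PZKO nuclei, which is 0.913 and 0.25 CPM (UMIs of the gene per 1000000 UMIs of the same nuclei). The log2 ratio of PZKO over PS19 was -1.87 over all nuclei (interval -2.45 to -1.31). Microglia held 47 and 20 of these UMIs, at 14.4 and 5.94 CPM (-1.28, -2.11 to -0.49). *Zbp1* was lower in PZKO but not at 0, and whether these 3′ reads lie in the deleted part is not given in the sources used here.

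In the mm10 genome, the 4 secreted-protein genes are short. *Apoe* lies on chromosome 7 from 19696109 to 19699188 and spans 3.08 kb, *Cst3* on chromosome 2 from 148871722 to 148875692 (3.97 kb), *Clu* on chromosome 14 from 65968483 to 65981547 (13.1 kb) and *Apod* on chromosome 16 from 31296192 to 31314808 (18.6 kb). The 3 membrane-protein genes are long. *Abcg1* lies on chromosome 17 from 31057675 to 31117988 (60.3 kb), *Lrp1* on chromosome 10 from 127538161 to 127621148 (83.0 kb) and *Abca1* on chromosome 4 from 53030787 to 53159895 (129 kb). Exons cover 69.4% of the span of *Apoe* and 8.03% of that of *Abca1*.

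The promoter windows are shown because the short genes *Apoe*, *Cst3* and *Apod* were lower in PZKO together while *Abca1* was not. RefSeq windows of 300 bases (GRCm38.p6, 250 bases before to 50 after the start) were found for 5 of the 7 genes, *Apoe*, *Apod*, *Cst3*, *Abca1* and *Lrp1*, all on the minus strand (for *Apoe*, which has 3 windows in the table, the one at the start annotated for the gene), and are written 5′ to 3′ in the direction of the gene. Each was searched on both strands for the GC box GGGCGG, the TATA box TATAAA, the LXR consensus (the hexamer AGGTCA repeated in the same direction with 4 bases between) and a spaced motif (GGTTA and GGTCA with 5 bases between). The letters of the last motif were chosen after the *Abca1* window had been read, to match the LXR element known in that promoter. Capitals mark the matches, none of which overlap.
Apoe, chr7:19699139-19699438: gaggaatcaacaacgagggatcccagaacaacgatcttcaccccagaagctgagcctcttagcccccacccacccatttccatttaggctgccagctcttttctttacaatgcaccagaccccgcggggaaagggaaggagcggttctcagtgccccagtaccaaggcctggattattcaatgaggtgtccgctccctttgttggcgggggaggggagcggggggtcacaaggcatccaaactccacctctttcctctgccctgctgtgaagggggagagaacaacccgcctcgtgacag
Cst3, chr2:148875463-148875762: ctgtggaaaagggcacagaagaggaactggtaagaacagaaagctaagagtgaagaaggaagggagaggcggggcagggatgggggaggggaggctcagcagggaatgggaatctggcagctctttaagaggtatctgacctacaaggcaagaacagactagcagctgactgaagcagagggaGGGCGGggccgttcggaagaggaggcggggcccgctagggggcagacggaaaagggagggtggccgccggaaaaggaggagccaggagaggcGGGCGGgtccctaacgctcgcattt
Apod, chr16:31314759-31315058: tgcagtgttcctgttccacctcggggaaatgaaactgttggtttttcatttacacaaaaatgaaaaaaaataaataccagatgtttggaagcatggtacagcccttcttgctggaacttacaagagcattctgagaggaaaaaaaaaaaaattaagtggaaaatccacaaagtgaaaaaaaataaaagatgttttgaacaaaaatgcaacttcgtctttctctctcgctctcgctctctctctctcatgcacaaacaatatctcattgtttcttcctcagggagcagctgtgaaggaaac
Abca1, chr4:53159846-53160145: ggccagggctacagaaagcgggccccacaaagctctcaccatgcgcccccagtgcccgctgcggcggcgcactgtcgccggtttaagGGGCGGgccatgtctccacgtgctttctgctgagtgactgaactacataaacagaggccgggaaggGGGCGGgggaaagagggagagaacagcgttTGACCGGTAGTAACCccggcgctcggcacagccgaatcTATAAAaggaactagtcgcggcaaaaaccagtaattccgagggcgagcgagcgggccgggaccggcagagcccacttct

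The *Abca1* window held GC boxes at positions -163 and -97 and a TATA box at position -29, counted from 0 at the start base. Its match to the spaced motif began at position -67 on the opposite strand, and 16 of all 32851 windows in the table (0.0487%) hold one. The *Cst3* window held GC boxes at -67 and 25, and the *Lrp1* window, not printed, held 1 GC box. No match to the 4 motifs was found in the *Apoe* and *Apod* windows. For comparison, 35.7% of all windows hold the GC box, 13.6% the TATA box and 0.0152% the LXR consensus. The GC content was 57.7% for *Apoe*, 60.3% for *Cst3*, 37.3% for *Apod*, 62.7% for *Abca1* and 67.7% for *Lrp1*, beside a median of 52.7% over all windows. The start of the *Cst3* window lies 180 bases from the start of the gene in GENCODE M21, and the starts of the other 4 coincide.

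Among classes with at least 50 nuclei in each library, *Apoe* had its highest counts per nucleus in astrocytes and its highest CPM in microglia. Microglia were at 3281 CPM in PS19 beside 1653 CPM in astrocytes, and at 1320 beside 904 CPM in PZKO. Macrophages, a class of 27 and 22 nuclei, held 11.7 and 3.5 *Apoe* UMIs per nucleus, at 4015 and 1150 CPM. Astrocyte nuclei held 12.4 *Apoe* UMIs each in PS19 (interval 12.2 to 12.6) and 8.60 in PZKO (8.43 to 8.77). Microglia followed with 11.3 UMIs per nucleus in PS19 (11.1 to 11.5) and 5.87 in PZKO (5.70 to 6.04), and ependymal cells with 7.50 (7.04 to 7.97) and 3.69 (3.34 to 4.07). Astrocytes, microglia and ependymal cells were the classes whose intervals lay above those of all others with at least 50 nuclei in PS19. In the 8 other classes the value ran from 2.44 in pericytes to 3.95 in VLMC in PS19 and from 1.95 in pericytes to 2.96 in OPC in PZKO.

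Those 8 classes hold nuclei of very different sizes of library, yet their *Apoe* counts per nucleus were close to each other. Excitatory neurons, with a mean of 21196 UMIs per PS19 nucleus, held 2.89 *Apoe* UMIs each, and endothelial nuclei, with a mean of 2413 UMIs, held 2.90. Barcodes with fewer than 600 UMIs in all, of which there were 182 in PS19 and 121 in PZKO, still held 2.60 *Apoe* UMIs in PS19 (2.37 to 2.84) and 2.08 in PZKO (1.83 to 2.36). T cells, a class of 33 and 36 nuclei that is not known to make apolipoprotein E, held 2.06 UMIs per nucleus in PS19 and 1.89 in PZKO. Per nucleus, excitatory neurons thus held 1.11 times the level of the under-600-UMI barcodes in PS19 (1.01 to 1.22), while astrocytes held 4.76 times that level (4.34 to 5.23) and microglia 4.34 times (3.96 to 4.77). In PZKO these values were 1.24 (1.10 to 1.42), 4.13 (3.64 to 4.70) and 2.82 (2.48 to 3.21) in the same order.

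The share of nuclei with an *Apoe* UMI showed the same. It was 99.0% of astrocytes and 91.3% of excitatory neurons in PS19, beside 84.8% of T cells, at median depths of 6894, 18783 and 1860 UMIs. In PZKO the shares were 98.3%, 89.2% and 83.3%, at median depths of 8961, 27984 and 1992 UMIs. When each nucleus was thinned to 2000 UMIs, 89.5% of PS19 astrocytes and 26.7% of PS19 excitatory neurons had an *Apoe* UMI, beside 76.9% and 17.1% in PZKO. The thinning left out 4 and 3 astrocytes and 0 and 4 excitatory neurons that were shallower. The thinned shares of T cells, 56.2% and 55.6%, rest on 16 and 18 nuclei.

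**Figure D1:**
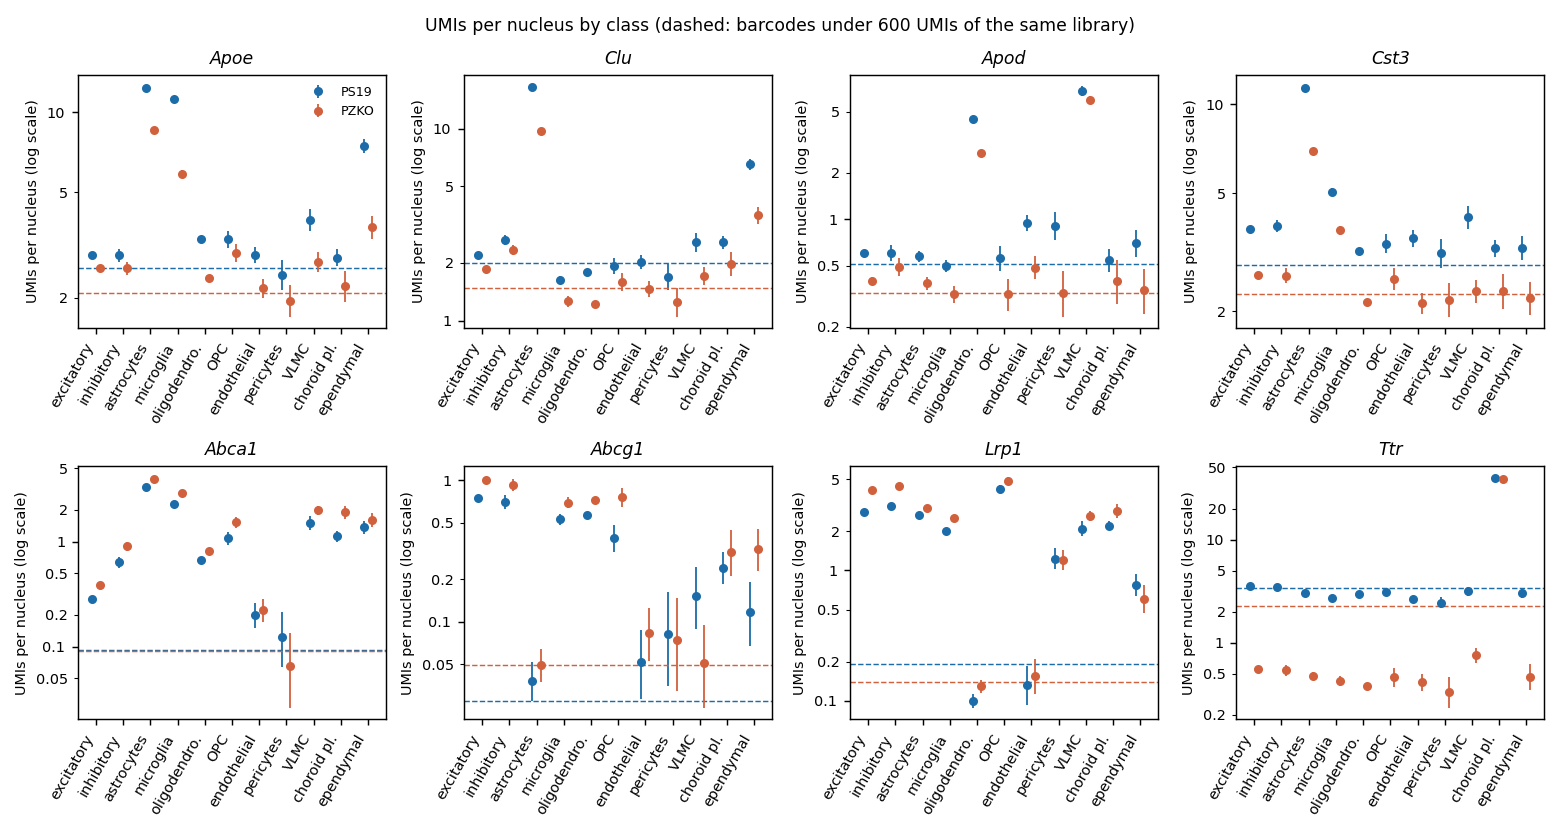
UMIs per nucleus (log axis) of the 7 genes and of the choroid plexus gene *Ttr* in the 11 classes with at least 50 nuclei per library, for PS19 (blue) and PZKO (orange), with exact Poisson 95% intervals. Dashed lines give the same value in barcodes under 600 UMIs. *Apoe*, *Clu*, *Apod* and *Cst3* lie near the dashed lines in most classes and far above them in a few (*Apoe* in PS19 astrocytes at 12.4), whereas *Abca1*, *Abcg1* and *Lrp1* lie above them in most classes.

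*Clu* and *Cst3* followed the same layout. *Clu* was highest in astrocytes, at 16.4 UMIs per nucleus in PS19 (16.2 to 16.6) and 9.69 in PZKO (9.51 to 9.87), and next in ependymal cells, at 6.5 and 3.53. Choroid plexus, where clusterin is known to be made, held 2.56 and 1.98, no more than inhibitory neurons at 2.63 and 2.34. The 8 classes not listed as makers of *Clu* lay between 1.63 and 2.63 in PS19 and between 1.22 and 2.34 in PZKO, beside 1.99 and 1.48 in barcodes under 600 UMIs. *Cst3* reached 11.3 UMIs per nucleus in PS19 astrocytes (11.1 to 11.5) and 6.95 in PZKO astrocytes (6.80 to 7.10), and 5.05 and 3.75 in microglia. In the other classes of at least 50 nuclei it lay between 3.13 and 4.15 in PS19 and between 2.13 and 2.64 in PZKO. This range includes choroid plexus, and the shallow barcodes held 2.86 and 2.28.

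*Apod* was highest in other cells. VLMC held 6.81 *Apod* UMIs per nucleus in PS19 (6.34 to 7.31) and 5.96 in PZKO (5.62 to 6.31), and oligodendrocytes held 4.47 (4.39 to 4.55) and 2.71 (2.64 to 2.78). All other classes held between 0.498 and 0.948 in PS19 and between 0.325 and 0.491 in PZKO, beside 0.511 and 0.331 in barcodes under 600 UMIs. In PS19, endothelial cells at 0.948 (0.836 to 1.07) and pericytes at 0.908 (0.729 to 1.12) lay above the rest of this range.

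Within a library, the proportions of the secreted-protein genes to each other outside their main sources were close to those of the shallow barcodes in some classes and not in others. For each *Apoe* UMI, barcodes under 600 UMIs in PS19 held 0.767 *Clu* UMIs and 1.10 *Cst3* UMIs. Excitatory neurons held 0.761 and 1.31, endothelial cells 0.701 and 1.22, and choroid plexus 0.903 and 1.15. The *Clu* proportion was lower in oligodendrocytes, at 0.540 (0.521 to 0.560), and in OPC, at 0.578 (0.510 to 0.653). Astrocytes stood apart with 1.33 *Clu* UMIs per *Apoe* UMI, and microglia with 0.144 *Clu* and 0.448 *Cst3* UMIs. For *Apod* the proportion was 0.197 in the shallow PS19 barcodes, 0.210 in excitatory neurons and 0.191 in choroid plexus, but 0.327 (0.283 to 0.377) in endothelial cells and 0.372 (0.289 to 0.477) in pericytes, against 1.35 in oligodendrocytes and 1.73 in VLMC.

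The membrane-protein genes were laid out differently, by class and by depth. Among classes of at least 50 nuclei, *Abca1* was highest in astrocytes, at 3.31 UMIs per nucleus in PS19 (3.21 to 3.42) and 3.96 in PZKO (3.85 to 4.08). It was next highest in microglia, at 2.30 and 2.89. It was lowest in pericytes, at 0.122 and 0.0648, beside 0.0934 and 0.0909 in barcodes under 600 UMIs. On the CPM scale the order turned, as for *Apoe*, and among these classes microglia led with 668 and 649 CPM. Astrocytes followed with 443 and 417 CPM, and macrophages, a smaller class, held 978 and 373 CPM.

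*Lrp1* was highest per nucleus in OPC, at 4.21 UMIs in PS19 (3.94 to 4.49) and 4.87 in PZKO (4.58 to 5.18). Inhibitory neurons held 3.11 and 4.46, excitatory neurons 2.79 and 4.11, astrocytes 2.68 and 2.99 and microglia 2.0 and 2.51. Oligodendrocytes held 0.10 and 0.129 and endothelial cells 0.133 and 0.155, near the 0.192 and 0.140 of the shallow barcodes. *Abcg1* was at 0.754 UMIs in PS19 and 1.01 in PZKO in excitatory neurons, 0.568 and 0.730 in oligodendrocytes and 0.531 and 0.695 in microglia. In astrocytes it was near the shallow barcodes, at 0.0379 UMIs in PS19 (0.0272 to 0.0514) and 0.0490 in PZKO (0.0371 to 0.0634), which is 41 and 57 UMIs in all.

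Depth within a class separated the genes as well. In excitatory neurons of PS19, the third of nuclei with most UMIs had 2.87 times the total UMIs of the third with fewest. *Lrp1* was 3.16-fold higher in the deeper nuclei (2.97 to 3.37) and *Abcg1* 1.90-fold (1.70 to 2.13). *Apoe* was 1.24-fold higher (1.17 to 1.30), *Cst3* 1.15-fold (1.10 to 1.21) and *Clu* 1.41-fold (1.33 to 1.5), close to the 1.26-fold (1.21 to 1.33) of *Ttr*, the transthyretin gene of the choroid plexus. In PZKO excitatory neurons, over a 3.02-fold difference in depth, *Lrp1* was 3.01-fold higher and *Apoe* 1.46-fold.

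In their main sources the secreted-protein genes were higher in deeper nuclei, *Cst3* by the least. *Apod* in oligodendrocytes was 5.49-fold higher in PS19 (5.18 to 5.83) and 3.52-fold in PZKO (3.28 to 3.78), over 2.74-fold and 2.98-fold in total UMIs. *Apoe* was 2.92-fold higher in PS19 microglia (2.76 to 3.09), over 2.37-fold, but 2.16-fold in PZKO microglia (2.0 to 2.34), over 2.76-fold, and 2.03-fold in PS19 astrocytes (1.94 to 2.12), over 2.62-fold. *Clu* in PS19 astrocytes was 2.26-fold higher (2.17 to 2.35) and in PS19 microglia, not a listed source, 1.18-fold (1.04 to 1.33). *Cst3* in astrocytes was 1.74-fold higher in PS19 (1.66 to 1.82) and 1.63-fold in PZKO (1.54 to 1.72). In microglia *Cst3* was only 1.32-fold higher in PS19 (1.23 to 1.42) and 1.44-fold in PZKO (1.31 to 1.58). These microglia values resemble the folds of *Apoe* and *Clu* in excitatory neurons.

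**Figure D2:**
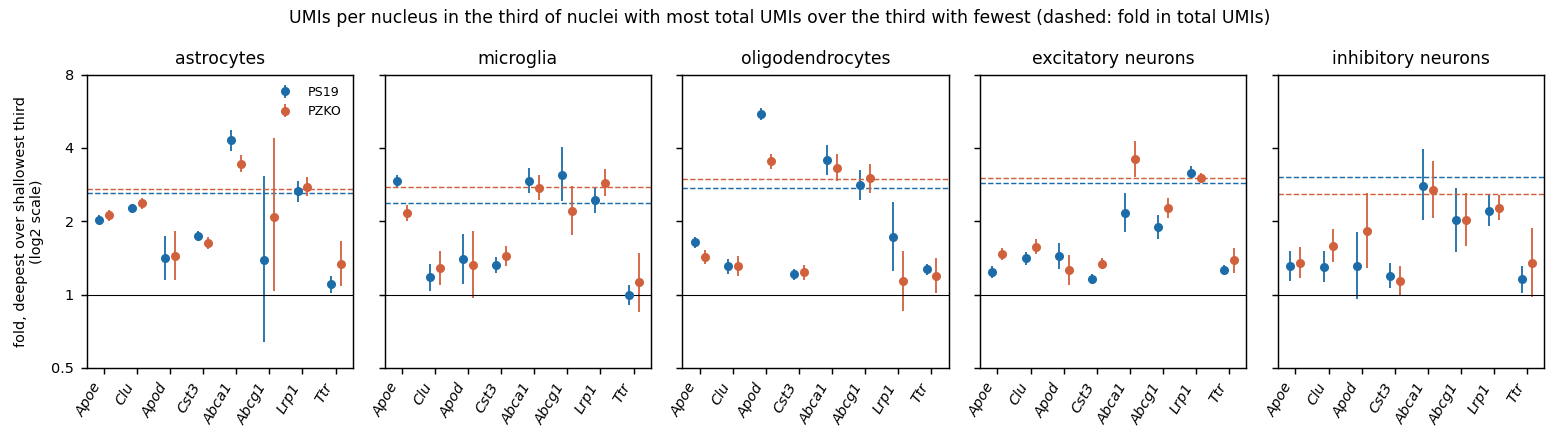
Fold in UMIs per nucleus between the third of nuclei with most total UMIs and the third with fewest, for each gene in the 5 main classes (log2 axis), with exact 95% intervals, for PS19 (blue) and PZKO (orange). Dashed lines give the fold in total UMIs and the solid line marks no change. In excitatory neurons *Lrp1* lies at the dashed lines (3.16 in PS19) and *Apoe*, *Clu*, *Apod*, *Cst3* and *Ttr* lie near the solid line, whereas *Apod* in oligodendrocytes (5.49 in PS19) lies above the dashed lines.

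The comparison of PZKO with PS19 asks how these genes differ when PS19 mice lack Zbp1. On the CPM scale, in which each class and library is brought to the same total, the 4 secreted-protein genes were lower in PZKO in all 11 classes, and the 3 membrane-protein genes lay within 1.5-fold in the 5 main ones. The largest difference among the main classes was that of *Apoe* in microglia, at 3281 CPM in PS19 and 1320 CPM in PZKO (log2 ratio -1.31, interval -1.36 to -1.26). In astrocytes *Apoe* was at 1653 and 904 CPM (-0.87, -0.91 to -0.83), *Clu* at 2193 and 1018 CPM (-1.11, -1.14 to -1.07) and *Cst3* at 1513 and 731 CPM (-1.05, -1.09 to -1.01). In oligodendrocytes *Apod* was at 1241 and 584 CPM (-1.09, -1.13 to -1.04). In VLMC, the other source of *Apod*, it was at 1428 and 896 CPM (-0.67, -0.81 to -0.54).

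In classes not listed as sources of these genes the ratios were below 0 as well. The sources were listed from background knowledge, and other classes may also make these transcripts. *Apoe* in excitatory neurons was at 136 CPM in PS19 and 83.5 CPM in PZKO (-0.71, -0.75 to -0.66), and *Cst3* at 178 and 85.1 CPM (-1.07, -1.11 to -1.03). *Apod* in microglia was at 145 and 73.4 CPM (-0.98, -1.21 to -0.76), and *Clu* in microglia at 473 and 283 CPM (-0.74, -0.86 to -0.62). Over the classes not listed as sources, the log2 ratio of *Apoe* ran from -1.23 in ependymal cells, which themselves held 2.88 times the level of the shallow barcodes in PS19, or from -1.01 in VLMC without them, to -0.51 in pericytes, that of *Clu* from -1.06 to -0.62, that of *Cst3* from -1.31 to -0.71 and that of *Apod* from -1.64 to -0.90. The ratio of *Apoe* in astrocytes lay inside its range with or without ependymal cells, and that in microglia lay below it. *Clu* in astrocytes (-1.11) and ependymal cells (-1.09) lay below its range, and *Apod* in VLMC (-0.67) lay above its range. These gaps were within counting error of the ends of the ranges. Both *Clu* ratios lay inside the interval of VLMC (-1.30 to -0.83), and that of *Apod* inside that of inhibitory neurons (-1.17 to -0.64). *Apoe* in microglia lay inside the interval of ependymal cells (-1.40 to -1.06) but below that of VLMC (-1.19 to -0.82). Inside their ranges lay *Clu* in choroid plexus (-0.94), *Apod* in oligodendrocytes (-1.09) and *Cst3* in astrocytes (-1.05), microglia (-0.80) and choroid plexus (-1.05).

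*Abca1* was at 668 CPM in PS19 microglia and 649 CPM in PZKO microglia (-0.04, -0.13 to 0.05) and at 443 and 417 CPM in astrocytes (-0.09, -0.15 to -0.02). *Lrp1* was at 132 and 133 CPM in excitatory neurons (0.01, -0.03 to 0.05), at 581 and 565 CPM in microglia (-0.04, -0.13 to 0.05) and at 359 and 315 CPM in astrocytes (-0.19, -0.26 to -0.12). *Abcg1* was at 158 and 157 CPM in oligodendrocytes (-0.00, -0.11 to 0.10) and at 35.6 and 32.7 CPM in excitatory neurons (-0.12, -0.20 to -0.04). Outside the main classes, *Lrp1* was lower in OPC, at 603 and 450 CPM (-0.42, -0.55 to -0.29), in ependymal cells, at 125 and 84.8 CPM on 106 and 65 UMIs (-0.56, -1.03 to -0.10), and in Cajal-Retzius cells, at 249 and 183 CPM (-0.44, -0.84 to -0.04). The macrophages, a class of 27 and 22 nuclei, were the only class in which *Abca1* lay past 1.5-fold with an interval clear of 0, at 978 and 373 CPM on 77 and 25 UMIs (-1.39, -2.10 to -0.72), and their *Apoe* was at 4015 and 1150 CPM (-1.80, -2.18 to -1.44).

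Read against all genes, 4 of the members with at least 100 UMIs were at least 1.5-fold lower in PZKO in each main class, namely the 4 secreted-protein genes, of 7 members measured in 4 classes and 6 in astrocytes, where *Abcg1* had too few UMIs. The share of all measured genes at least 1.5-fold lower was 5.98% in astrocytes, 3.82% in microglia, 4.97% in oligodendrocytes, 4.98% in excitatory neurons and 4.38% in inhibitory neurons. No member was at least 1.5-fold higher, beside 1.30%, 2.14%, 1.35%, 2.37% and 1.18% of all genes in the same order. The members were chosen with earlier results of these data known. From the same libraries the study names *Apoe*, *Clu*, *Cst3* and *Apod* as relatively enriched in PS19 excitatory neurons. It also names *Apoe* among the genes lower in PZKO microglia, and *Apoe*, *Clu* and *Cst3* among those lower in PZKO astrocytes. The count of lower members is therefore not independent of their choice, and it describes these genes only. The median log2 ratio of the 4 secreted-protein genes was -0.99 in astrocytes, -0.89 in microglia, -0.93 in oligodendrocytes, the same in excitatory neurons and -0.84 in inhibitory neurons. That of the membrane-protein genes was -0.14 (over 2 genes), -0.04, -0.00, -0.11 and -0.09, and that of all measured genes lay between -0.07 and -0.02.

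**Figure D3:**
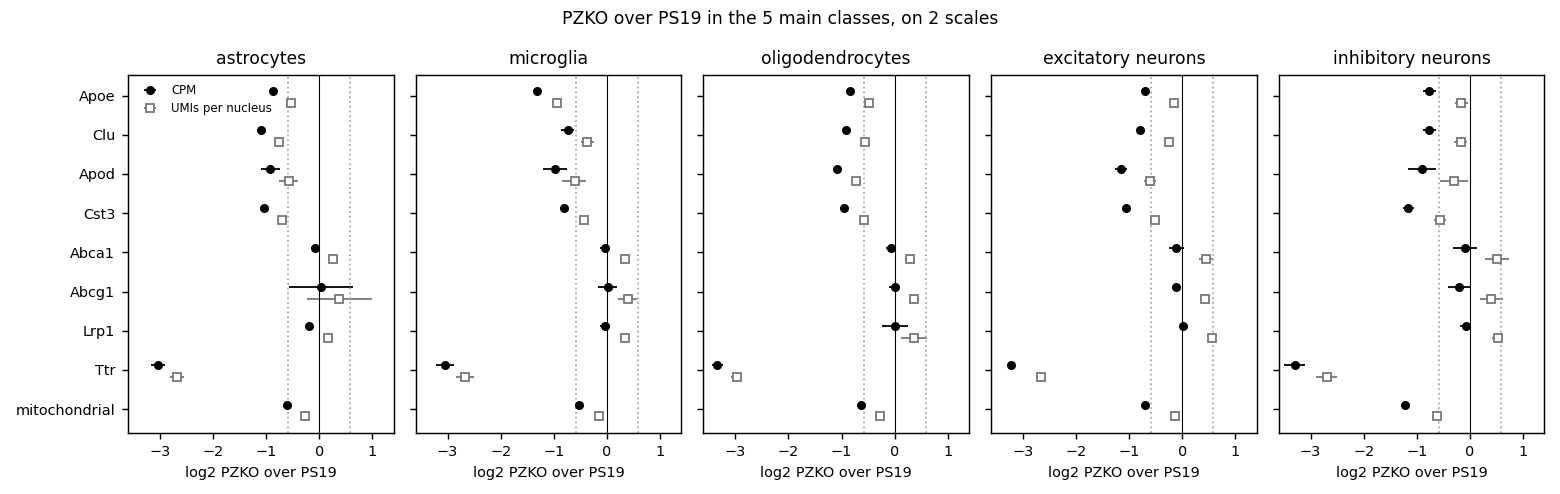
Log2 ratio of PZKO over PS19 of each gene in the 5 main classes, on the CPM scale (black circles) and as UMIs per nucleus (grey squares), with exact 95% intervals, beside *Ttr* and the sum of the mitochondrially encoded genes. Dotted lines mark 1.5-fold. On the CPM scale *Apoe*, *Clu*, *Apod* and *Cst3* lie left of the dotted line in all 5 panels (*Apoe* in microglia at -1.31) and *Abca1*, *Abcg1* and *Lrp1* lie near 0, and on the scale of UMIs per nucleus all points move to the right.

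The scale matters here, because PZKO nuclei held more UMIs. The mean total per nucleus was 1.46 times that of PS19 in excitatory neurons, 1.52 times in inhibitory neurons, 1.27 times in astrocytes, 1.29 times in microglia and 1.29 times in oligodendrocytes. As UMIs per nucleus, with no scaling by total, the median log2 ratio of all measured genes lay between 0.29 and 0.56 in the main classes. On that scale the ratio of *Apoe* was -0.16 in excitatory neurons (-0.20 to -0.11) and -0.16 in inhibitory neurons. It was -0.94 in microglia (-0.99 to -0.89), -0.52 in astrocytes (-0.56 to -0.49) and -1.02 in ependymal cells (-1.19 to -0.85). Classes not listed as sources of *Apoe* also came near the value of astrocytes, with -0.48 in oligodendrocytes (-0.53 to -0.43), -0.53 in VLMC and -0.42 in endothelial cells. Choroid plexus was at -0.36, pericytes at -0.32 and OPC at -0.17. *Clu* was at -0.76 in astrocytes (-0.79 to -0.73) and -0.25 in excitatory neurons (-0.30 to -0.19). Over the classes not listed as its sources, *Clu* ran from -0.58 in VLMC to -0.17 in inhibitory neurons. *Apod* was at -0.72 in oligodendrocytes (-0.77 to -0.68), -0.61 in excitatory neurons and -0.19 in VLMC. *Cst3* was at -0.70 in astrocytes and -0.52 in excitatory neurons. On the same scale *Abca1*, *Abcg1* and *Lrp1* had ratios above 0 in the main classes, between 0.16 (*Lrp1* in astrocytes) and 0.56 (*Lrp1* in excitatory neurons).

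Of the genes past 1.5-fold in either direction, between 64.1% and 82.1% were lower in PZKO on the CPM scale, depending on the class. The split was 51.0% to 68.4% with edgeR's TMM factors, 48.2% to 64.5% with DESeq2's size factors and 0.691% to 7.12% as UMIs per nucleus.

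Some transcripts of other origin differed in the same direction as the secreted-protein genes. In the 10 classes of 50 or more nuclei other than choroid plexus, *Ttr* was at 2.45 to 3.54 UMIs per nucleus in PS19 and at 0.333 to 0.760 in PZKO, with log2 ratios on the CPM scale between -3.37 and -2.53. In choroid plexus itself it was at 39.3 UMIs per nucleus in PS19 and 38.7 in PZKO, and this class held 261 PS19 nuclei and 96 PZKO nuclei. The mitochondrially encoded genes, which nuclei do not transcribe, had a log2 ratio on the CPM scale of -0.70 in excitatory neurons, -1.23 in inhibitory neurons, -0.61 in astrocytes, -0.53 in microglia and -0.64 in oligodendrocytes, beside -0.02 in endothelial cells. As UMIs per nucleus these ratios were -0.15, -0.63, -0.27, -0.16 and -0.27 in the same order, beside 0.12 in endothelial cells. The oligodendrocyte gene *Mbp* had a log2 ratio on the CPM scale of 0.10 (0.06 to 0.15) in excitatory neurons. The part of these genes in the ratios of the members was not tested.

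The levels of the members in barcodes under 600 UMIs also differed between the libraries. As UMIs per barcode their log2 ratio was -0.32 for *Apoe* (-0.55 to -0.10), -0.43 for *Clu* (-0.70 to -0.17), -0.63 for *Apod* (-1.20 to -0.08) and -0.32 for *Cst3* (-0.54 to -0.11). When their mean was subtracted from every nucleus, *Apoe* and *Clu* in excitatory neurons turned to log2 ratios of 0.25 and 0.32, and *Apoe* and *Apod* in inhibitory neurons to 0.17 and 0.16. In PS19 these levels were near the one subtracted, at 1.11 times (0.999 to 1.24) for *Apoe* and 1.18 times (0.931 to 1.52) for *Apod* in inhibitory neurons and 1.10 times (0.991 to 1.23) for *Clu* in excitatory neurons. In PZKO the intervals lay above 1, at 1.24 times (1.08 to 1.43) for *Apoe* and 1.49 times (1.06 to 2.14) for *Apod* in inhibitory neurons. In PZKO excitatory neurons *Apoe* was at 1.24 times (1.10 to 1.42) and *Clu* at 1.25 times (1.08 to 1.46). The turned ratios thus rest on PS19 remainders within or near counting error of 0 and give no direction. After the same subtraction *Apoe* in astrocytes (-0.96) and microglia (-1.63), *Clu* in astrocytes (-1.18) and *Apod* in oligodendrocytes (-1.16) were lower in PZKO. For *Ttr*, the barcodes under 600 UMIs held 3.36 UMIs each in PS19 and 2.25 in PZKO, beside 3.54 and 0.558 in excitatory neurons. In PZKO they thus did not give the level of *Ttr* in nuclei, and whether the subtraction suits the members there was not tested. A cluster of 318 PS19 nuclei and 227 PZKO nuclei with medians of 814.5 and 815 UMIs, left unnamed and led by *Ttr*, held 5.11 and 3.90 *Apoe* UMIs per nucleus.

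The lower values were also seen within the clusters of the sources. Microglia formed 2 clusters. In the larger one, of 556 and 536 nuclei, *Apoe* was at 1950 CPM in PS19 and 997 CPM in PZKO (-0.97, -1.04 to -0.89), and in the smaller one, of 393 and 221 nuclei, at 4861 and 2022 CPM (-1.27, -1.34 to -1.20). Both differences were smaller than that of all microglia (-1.31). The smaller cluster, with the higher *Apoe*, had fewer nuclei in PZKO, and the part of this mix in the class ratio was not tested. *Abca1* was at 580 and 591 CPM in the larger cluster and at 773 and 775 CPM in the smaller one. The 2 astrocyte clusters had *Clu* ratios of -1.18 (-1.23 to -1.12) and -1.01 (-1.06 to -0.97) and *Apoe* ratios of -0.96 and -0.77. Of the oligodendrocyte clusters, the 2 large ones had *Apod* ratios of -1.29 (-1.35 to -1.24) and -1.10 (-1.19 to -1.01), and a small one of 14 and 23 nuclei had -0.26 (-0.57 to 0.06).

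The length of the gene, which was not used to choose the members, went with the ratio across all genes. Among the other measured genes in astrocytes, the 1017 genes with a span under 5 kb had a median log2 ratio of -0.41 and 29.3% were at least 1.5-fold lower, whereas the 3376 genes over 60 kb had a median of 0.09 and 1.13% were. In excitatory neurons the medians were -0.29 for 1860 genes under 5 kb, -0.15 for 4960 genes of 5 to 20 kb, -0.05 for 4928 genes of 20 to 60 kb and 0.06 for 4127 genes over 60 kb. In microglia they ran from -0.31 to 0.09, in oligodendrocytes from -0.36 to 0.10 and in inhibitory neurons from -0.35 to 0.07. *Apoe*, *Cst3*, *Clu* and *Apod* lay below the lower quartile of the genes of their own length in all 5 classes. So did *Abca1*, by less, with -0.088 in astrocytes beside a lower quartile of -0.030 for genes over 60 kb and -0.11 in excitatory neurons beside -0.071. *Lrp1* lay below that quartile in astrocytes, microglia and inhibitory neurons, and *Abcg1* in excitatory and inhibitory neurons. The part of length in the ratios of the members was not tested.

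**Figure D4:**
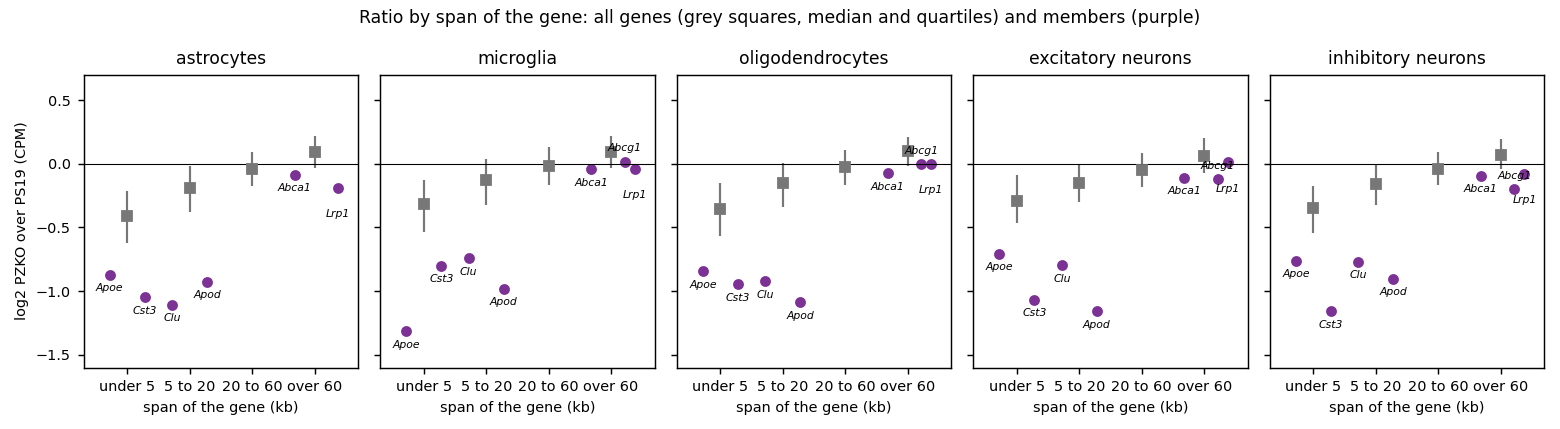
Log2 ratio of PZKO over PS19 (CPM scale) by span of the gene in kb, in the 5 main classes: medians and quartiles of all other genes with at least 100 UMIs (grey) and the members (purple, labelled). The medians rise with the span, from -0.41 to 0.09 in astrocytes, and the 4 secreted-protein genes and *Abca1* lie below the lower quartiles of their bins in all 5 panels, *Abca1* by the smaller distance (-0.088 beside a quartile of -0.030 in astrocytes).

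Other genes of lipid transport and cholesterol metabolism were described from a list of 83 genes. As a whole they stayed near 0. Of 66 measured in astrocytes 2 were lower and 5 higher, of 47 in microglia 3 and 2, of 59 in oligodendrocytes 3 and 1, of 72 in excitatory neurons 5 and 3, and of 57 in inhibitory neurons 1 and 0. The medians lay between -0.06 in oligodendrocytes and 0.06 in astrocytes. Set against the shares of all genes given above, the widest gap was that of the higher genes in astrocytes, 5 of 66 genes beside 1.30% of all genes.

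The apolipoproteins and lipid-binding proteins on the list lay below 0 as the secreted-protein members did, with medians of -0.37 over 8 genes in astrocytes, -0.42 over 5 in microglia, -0.42 over 8 in oligodendrocytes, -0.37 over 11 in excitatory neurons and -0.22 over 7 in inhibitory neurons. As UMIs per nucleus these medians were -0.02, -0.05, -0.06, 0.18 and 0.38, beside 0.29, 0.35, 0.33, 0.48 and 0.56 for all measured genes. They thus lay above 0 in neurons on that scale, but below the median of all genes in each class on both scales. On the CPM scale, the measured genes under 5 kb had medians between -0.41 and -0.29 in these classes. The genes of this group were not set against genes of their own length. The lowest was *Fabp3*, a fatty acid-binding protein, in oligodendrocytes at 13.3 CPM in PS19 and 6.59 CPM in PZKO (-1.01, -1.45 to -0.57). *Fabp5*, of the same family, was among the lowest 3 in microglia (-0.73, -1.16 to -0.30), oligodendrocytes (-0.87, -1.08 to -0.66) and inhibitory neurons (-0.61, -1.07 to -0.16). *Pltp*, the phospholipid transfer protein, and *Npc2*, which moves cholesterol out of lysosomes, were among the lowest in astrocytes (-0.67, -0.93 to -0.41, and -0.48, -0.69 to -0.27). In excitatory neurons *Fabp7* (-0.99, -1.53 to -0.47) and *Lcat*, which esterifies cholesterol on particles (-0.80, -1.24 to -0.36), were lowest with the receptor *Lrp5* (-0.85, -1.16 to -0.53), and *Psap* (-0.46, -0.57 to -0.35) and the receptor chaperone *Lrpap1* (-0.50, -0.67 to -0.33) in inhibitory neurons.

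Genes of cholesterol synthesis went the other way in astrocytes. Of 12 measured, 11 were above 0 and 4 at least 1.5-fold higher in PZKO, and their median was 0.47 on the log2 scale. Of all 11830 genes measured in astrocytes, 6972 were below 0 and 1.30% were at least 1.5-fold higher. Among the highest 3 of the whole list in astrocytes were *Mvd* at 7.28 and 12.5 CPM (0.78, 0.33 to 1.24) and *Fdps* at 9.75 and 16.1 CPM (0.72, 0.33 to 1.12), enzymes of the mevalonate pathway. The other 2 of the group past 1.5-fold, named after their values were seen, were *Fdft1* at 39.0 and 62.3 CPM (0.68, 0.48 to 0.87) and *Dhcr7* at 15.7 and 24.2 CPM (0.63, 0.32 to 0.94). The median of the group was 0.25 over 12 genes in excitatory neurons, 0.12 over 11 in inhibitory neurons, 0.05 over 11 in oligodendrocytes and 0.02 over 3 in microglia. In inhibitory neurons *Fdft1* (0.50, 0.17 to 0.84) and the sterol-sensing factor *Srebf2* (0.49, 0.29 to 0.69) were among the highest.

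Of the further receptors, transporters and enzymes, microglia had lower *Soat1*, which esterifies cholesterol for storage, at 262 and 173 CPM (-0.60, -0.75 to -0.45), and lower *Lrp10* (-0.67, -1.11 to -0.25). *Lrp1b* (1.22, 0.90 to 1.55) and *Abca5* (1.0, 0.38 to 1.64) were higher in microglia on 267 and 68 PZKO UMIs, with *Lrp4* next (0.54, -0.03 to 1.12). In excitatory neurons the highest 3 were the retinoid X receptors *Rxrg* (0.78, 0.36 to 1.23) and *Rxra* (0.61, 0.29 to 0.94) and *Lrp4* (0.61, 0.37 to 0.87). The rest of the named genes were *Plin2*, a lipid droplet protein, in astrocytes (-0.63, -1.03 to -0.24), *Lpl*, lipoprotein lipase, in oligodendrocytes (-0.64, -1.25 to -0.04), *Lrp8* (0.47, -0.12 to 1.07) and *Scarb1* (0.34, 0.10 to 0.58) in oligodendrocytes and *Lrp1b* (0.25, 0.22 to 0.28) in inhibitory neurons.

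Over the 11 classes and both libraries (22 points of log2(CPM + 1), which share depth and library), the genes whose levels ran most like those of *Apoe* were *Cd81* (Pearson's r = 0.93), *Ftl1* (0.93) and *Tmbim6* (0.92), and those most like *Cst3* were *Cd81* (0.96), *Tmbim6* (0.95) and *Lamp1* (0.94). *Clu* ran with the metallothioneins *Mt1* (0.97), *Mt3* (0.97) and *Mt2* (0.96), and *Apod* with *Ptgds* (0.96), *Cldn11* (0.88) and *Aspa* (0.87). *Abca1* ran with *Tsc22d4* (0.89), *Rhoq* (0.89) and *Tbl1xr1* (0.88), *Abcg1* with *Lrrc8d* (0.86), *Dpy19l1* (0.83) and *Bin1* (0.80), and *Lrp1* with *Pid1* (0.90), *Zbed3* (0.86) and *Chd9* (0.85). Among the members themselves, r was 0.95 between *Apoe* and *Cst3*, 0.87 between *Apoe* and *Clu*, 0.71 between *Apoe* and *Abca1*, 0.58 between *Apoe* and *Apod*, 0.59 between *Clu* and *Abca1*, 0.49 between *Clu* and *Apod*, 0.15 between *Apoe* and *Lrp1* and 0.08 between *Apoe* and *Abcg1*.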

How the data were processed

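Single-nucleus 3′ RNA-seq of pooled hippocampi was measured in 1 library per genotype. The deposited files hold UMI counts per gene and nucleus, whole numbers without normalization, which the authors made with Cell Ranger on mm10 (version 7.0.1 in the submitters' processing notes, 8.0.1 in the matrix headers). The correction of ambient RNA and the doublet removal of the study's methods are not part of these counts. The members and lists were chosen with earlier results of these data known.

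Barcodes with at least 600 UMIs, 300 genes and at most 5% mitochondrial UMIs were kept, and the highest Scrublet scores (scanpy 1.11.5) were removed at 0.8% per 1000 nuclei, 876 in PS19 and 821 in PZKO. Both libraries were clustered together (2000 variable genes without the members and lists, 30 components, 20 neighbours, leidenalg 0.10.2 at resolution 1). A name required 3 detected markers of its list. The limits under which clusters stayed without a name, which hold 6.33% of PS19 and 6.08% of PZKO nuclei, were chosen with the clusters in view. UMIs were summed per class and library and scaled to CPM. Ratios have exact binomial intervals, levels exact Poisson and shares exact binomial intervals, all for counting error only. A gene was called lower or higher past 1.5-fold, among genes with a sum of 100 or more UMIs in PS19 and PZKO together. In the list, the 3 lowest and 3 highest genes of each main class were named (some are not reported here), and for each member the 3 genes with the highest correlation. Positions came from GENCODE M21. On simulated counts the intervals held 95.4% of true ratios in excitatory neurons (15971 genes) and 95.5% in microglia (8480 genes). The alternatives used edgeR 4.0.16 and DESeq2 1.42.0 factors, other filters, clusterings and summaries.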

Additional observations from a re-analysis of the deposited data

Results flagged for a closer look

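*Abcg1* differed in opposite directions between 2 small classes, which was not tested with 1 library per genotype. It was lower in PZKO in VLMC, on 17 UMIs in 112 PS19 nuclei and 10 UMIs in 196 PZKO nuclei (log2 ratio -2.05, interval -3.34 to -0.84), and higher in ependymal cells, on 16 UMIs in 137 PS19 nuclei and 35 UMIs in 107 PZKO nuclei (1.28, 0.38 to 2.23). Both classes were under the minimum of 100 UMIs used for calls.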

How the results depend on the processing

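The median log2 ratio of the 4 secreted-protein genes was below 0 under 12 of 12 alternatives in each main class, from -1.13 to -0.64 in astrocytes, -1.32 to -0.52 in microglia, -1.43 to -0.57 in oligodendrocytes, -0.96 to -0.38 in excitatory neurons and -1.05 to -0.013 in inhibitory neurons. The values -1.32, -1.43 and -0.013 came from the subtraction of barcodes under 600 UMIs. There the median rests only on *Apoe* and *Cst3* in microglia and on *Apoe* and *Apod* in oligodendrocytes, and -0.013 gives no direction. None of the 3-gene membrane medians passed 1.5-fold. Of 60 secreted and 60 membrane medians under the alternatives, 22 and 10 moved outside a range set by the members' intervals. That range ran from the median of their lower bounds to the median of their upper bounds. No alternative turned a called median.

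With UMIs per nucleus in place of CPM (chosen after seeing the data), the secreted medians were -0.64 in astrocytes, -0.52 in microglia, -0.57 in oligodendrocytes, -0.38 in excitatory and -0.24 in inhibitory neurons, the membrane medians 0.21, 0.33, 0.36, 0.44 and 0.51, and the members at least 1.5-fold lower numbered 2, 2, 1, 1 and 0. After subtraction of the mean of barcodes under 600 UMIs, the secreted medians were -1.32 in microglia, -1.43 in oligodendrocytes, -0.40 in excitatory and -0.013 in inhibitory neurons, the membrane median in excitatory neurons was 0.051, and these classes had 2, 2, 2 and 1 members at least 1.5-fold lower. There *Apoe* and *Clu* in excitatory neurons turned to 0.25 and 0.32, and *Apoe* and *Apod* in inhibitory neurons to 0.17 and 0.16, on PS19 remainders within or near counting error of 0. The subtraction left no UMIs for *Clu* and *Apod* in microglia and for *Clu*, *Cst3* and *Lrp1* in oligodendrocytes, which then have no value. *Apoe* in PZKO oligodendrocytes was at 1.14 times the subtracted level (1.01 to 1.30), so its remainder was also small. The cause of these changes was not tested.

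With edgeR's TMM factors the secreted medians were -0.91 (astrocytes) and -0.86 (excitatory neurons), and the membrane median in astrocytes was -0.058. With DESeq2's size factors the secreted medians were -0.90 in astrocytes, -0.85 in oligodendrocytes and -0.85 in excitatory neurons and the membrane median in astrocytes -0.049. The strict filter on nuclei gave secreted medians of -0.85 in astrocytes and -0.86 in oligodendrocytes, and no filter -1.13 in astrocytes. With equal weight of each cluster they were -0.73 in oligodendrocytes and -0.84 in excitatory neurons, and the membrane median in oligodendrocytes 0.21. The mean over nuclei gave -1.05 in inhibitory neurons. Thinned to 2000 UMIs, the secreted medians were -0.84 in oligodendrocytes and -1.04 in inhibitory neurons and the membrane median in excitatory neurons -0.34.

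Among genes with at least 20 UMIs, 10.1% were at least 1.5-fold lower and 3.37% higher in astrocytes, 8.56% and 5.80% in microglia, 9.36% and 3.50% in oligodendrocytes, 8.46% and 4.91% in excitatory neurons and 8.81% and 3.98% in inhibitory neurons. With 1 UMI in each library the shares were 15.1% and 6.5%, 14.5% and 10.7%, 15.5% and 8.30%, 15.0% and 8.01%, and 17.4% and 8.0%.

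No paired analysis was possible because each genotype is 1 library with the same replicate number 1. With 1 pooled library per genotype, genotype, pool and library preparation cannot be told apart, and no difference has a replicate check. Intervals cover counting error only. Depth limits *Abcg1* in astrocytes, on 41 and 57 UMIs.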

Other observations

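Cajal-Retzius cells, with 41 PS19 nuclei and 55 PZKO nuclei, fell under the minimum of 50 in PS19. They held 2.63 *Apoe* UMIs per nucleus in PS19 (2.16 to 3.18) and 2.98 in PZKO (2.54 to 3.47), 3.27 and 3.38 *Cst3* UMIs, and 1.98 and 3.0 *Lrp1* UMIs. Their mean total per nucleus was 2.07 times higher in PZKO. In T cells, *Clu* was at 2.0 UMIs per nucleus in PS19 (1.55 to 2.54) and 1.89 in PZKO (1.47 to 2.39), and *Cst3* at 3.18 (2.60 to 3.85) and 1.72 (1.32 to 2.21).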
